A study of Homo sapiens with 24 samples.

Results

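The lysosome and V-ATPase genes described here are 37 genes taken by symbol from the count table, which holds 26645 gene entries. They comprise 3 transcription factors of the MiT/TFE family, 15 soluble hydrolases, 2 further soluble lysosomal proteins, 5 membrane proteins of the lysosome, and 12 subunits of the vacuolar proton pump (V-ATPase). All 37 symbols were found once, and 36 passed the filter on low counts. The exception was NEU1, a sialidase, which had at most 5 reads in any library.

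RNA was measured in MB468 cells (MDA-MB-468, a triple-negative breast cancer line that cannot proliferate on the Met precursor Hcy without Met) and in MB468res-R8 cells, 1 clone derived from MB468 that does. At 0 h the cells of each line were in medium with 100 µM Met (Met+), and the other groups were collected 0.5, 2, and 12 h after a switch to medium without Met and with 370 µM DL-Hcy (Met-Hcy+). Vitamin B12, glutamine, cysteine, and dialyzed serum were present in all groups. Each of the 8 groups has 3 libraries, and the labels do not say whether these came from separate cultures, so each p below measures only the spread between these libraries. No Met+ group was collected at 0.5, 2, or 12 h. At each of these times Met stress therefore cannot be told apart from the medium change itself and the time since it. A further limit is that in bulk RNA fewer cells of a type and less RNA per cell cannot be told apart.

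The 24 libraries held 11713037 to 36402932 counts in genes (median 20452797), with spike-in RNA adding 0.201 to 0.303% of counts. All 7 epithelial and basal markers examined were at 255 CPM (counts scaled to library size) or more in every library, with EGFR at 2102 to 4278 CPM. ESR1 stood at 4.16 to 22.6, ERBB2 at 38.3 to 97.3, and PGR at 0 to 0.0983 CPM. Of the markers of other cell types, COL3A1 and PTPRC stayed at or under 0.199 CPM, PECAM1 reached 2.67 CPM, CD68 reached 10.0 CPM, and COL1A1 ranged from 14.6 to 73.2 CPM.

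Lysosomes break down proteins, lipids, glycans, and glycogen with acid hydrolases, and their lumen is kept acidic by the V-ATPase. The pump joins a membrane sector, V0, through which protons pass, to a cytosolic sector, V1, which hydrolyses ATP. TFEB, TFE3, and MITF bind E-box sequences with the core CACGTG near the start of many lysosomal genes. When amino acids are plentiful, the kinase mTORC1 at the lysosomal surface phosphorylates TFEB and TFE3 and holds them in the cytosol, and when nutrients run low they move to the nucleus and raise the transcription of lysosomal genes. The comparisons therefore ask whether transcripts of this set changed in Met stress and whether the pump and the hydrolases changed alike. RNA counts do not measure where these factors are in the cell.

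Promoter sequence around the start site was present for 25 of the 37 genes in the RefSeq table used (GRCh38.p14). CACGTG, searched on both strands in windows from 250 bases before to 50 bases after each start, occurred in 10 of the 25, against 8.77% of 27305 genes with a window. The longer form GTCACGTG, which contains it, occurred in 9 of the 25, against 2.93%. The 10 genes were LAMP1, GAA, CTSA, CTSD, NEU1, MCOLN1, CLCN7, ATP6V0B, ATP6V0D1, and ATP6V1G1. 4 of them are printed below as the 200 bases before the RefSeq start site, 5′ to 3′ on the gene's own strand, with CACGTG in capitals, because they span the responses seen: GAA fell in both lines, LAMP1 and ATP6V0D1 fell in MB468, and ATP6V1G1 rose in both. LAMP1 lies at chr13:113297039-113297238 on the plus strand, GAA at chr17:80101381-80101580 on the plus strand, ATP6V1G1 at chr9:114587569-114587768 on the plus strand, and ATP6V0D1 at chr16:67481158-67481357 on the minus strand. GENCODE places the start of GAA, ATP6V1G1, and ATP6V0D1 slightly further upstream.
LAMP1: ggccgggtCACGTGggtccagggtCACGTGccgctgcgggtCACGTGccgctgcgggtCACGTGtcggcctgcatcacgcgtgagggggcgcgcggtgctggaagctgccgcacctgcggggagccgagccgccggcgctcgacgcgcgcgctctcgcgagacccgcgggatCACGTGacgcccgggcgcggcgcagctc
GAA: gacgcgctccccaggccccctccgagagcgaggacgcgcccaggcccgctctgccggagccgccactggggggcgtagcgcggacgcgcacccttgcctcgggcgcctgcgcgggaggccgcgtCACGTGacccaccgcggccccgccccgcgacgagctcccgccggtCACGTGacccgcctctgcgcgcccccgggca
ATP6V1G1: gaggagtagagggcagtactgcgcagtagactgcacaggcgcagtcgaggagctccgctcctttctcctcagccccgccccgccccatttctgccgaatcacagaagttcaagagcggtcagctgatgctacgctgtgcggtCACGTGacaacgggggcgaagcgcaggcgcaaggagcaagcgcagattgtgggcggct
ATP6V0D1: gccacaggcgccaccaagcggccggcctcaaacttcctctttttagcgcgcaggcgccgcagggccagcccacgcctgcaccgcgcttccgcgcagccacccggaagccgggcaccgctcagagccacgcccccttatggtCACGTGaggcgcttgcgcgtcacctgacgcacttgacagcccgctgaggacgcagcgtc
The LAMP1 window held 6 copies of the core, the last of which crosses the start site, the GAA window held 2, and those of ATP6V1G1 and ATP6V0D1 held 1 each. These are matches of letters, not measured binding.

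At 0 h the set spanned a wide range of levels, given here as CPM per kb of the MANE Select transcript. The 3 highest in MB468 were PSAP, the precursor of the saposins that present lipids to hydrolases, at 411 ± 5.69 (SD, n = 3), the aspartic protease CTSD at 218 ± 2.84, and the membrane glycoprotein LAMP1 at 168 ± 4.22. The same genes led in MB468res-R8, with PSAP at 425 ± 11.4, CTSD at 284 ± 11.9, and LAMP1 at 186 ± 2.02. Pump subunits took the next 4 places in both lines, from ATP6V0B at 93.1 ± 3.002 to ATP6V0C at 70.2 ± 4.36 in MB468. The regulators lay lower, at 27.9 ± 1.71 for TFE3, 8.19 ± 0.612 for TFEB, and 1.21 ± 0.151 for MITF in MB468. NEU1 was last at 0.00784 ± 0.0136 in MB468 and 0.0324 ± 0.0184 in MB468res-R8. Among the protein-coding genes within 500000 bases of NEU1, 38 of 61 (62.3%) had no more than 10 counts in any library, against 28.2% of all 18159 protein-coding genes of the table, and the reason was not tested.

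**Figure D1:**
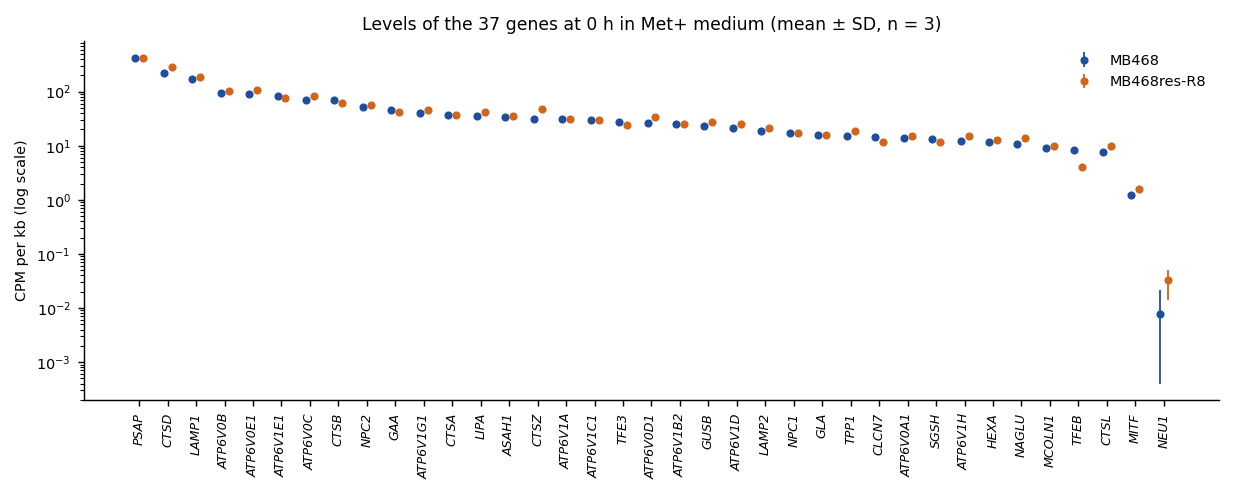
Levels of the 37 genes at 0 h in Met+ medium, as CPM per kb on a log axis, in order of the MB468 level. Points are means and bars the SD of 3 libraries in each line, and the lower bar of NEU1 in MB468 is cut where the SD exceeds the mean. PSAP, CTSD, and LAMP1 lead in both lines, and MITF and NEU1 are last.

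The lines already differed in Met+ medium. Of the 36 tested genes, 19 were higher in MB468res-R8 and 5 lower (edgeR's quasi-likelihood test, Benjamini-Hochberg adjusted p under 0.05 over 14741 genes), against 26.4% of all genes higher and 27.1% lower. The median of the 36 log2 differences was 0.13, and that of all genes 0.00. CTSZ, a cysteine carboxypeptidase, had the largest difference upward at log2 0.57 (SE 0.053, adjusted p = 3.17e-12), at 1080 ± 39.5 (MB468) and 1610 ± 75.1 (MB468res-R8) normalized counts. All 5 V0 subunits were higher, by log2 0.13 to 0.38, as were 3 of 7 V1 subunits (ATP6V1D, ATP6V1G1, and ATP6V1H) and 8 of 14 hydrolases. The 5 lower genes were TFEB, TFE3, SGSH, CTSB, and the chloride-proton exchanger CLCN7. TFEB, at log2 -0.97, had the largest difference of the 36 in either direction.

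The 19 higher calls rest on the scaling. TMM scaling (trimmed mean of M-values) sets the bulk of genes equal between libraries, whereas scaling by the spike-in RNA moved the median of all genes between the lines at 0 h by -0.31 on the log2 scale, and then 0 of the 36 genes were higher and 11 lower, against 7.76% and 44.1% of all genes, with a median that was 0.13 above that of all genes. The 5 genes lower with TMM scaling stayed called lower with spike-in scaling. Their values there were log2 -1.30 for TFEB, -0.60 for CLCN7, -0.49 for SGSH and TFE3, and -0.47 for CTSB. Spike-in scaling also moved the medians of all genes by -0.21, -0.42, and -0.24 for MB468 at 0.5, 2, and 12 h, and by 0.04, -0.05, and 0.02 for MB468res-R8. At 0 h several calls were lost when 1 library was left out. Without MB468 0 h replicate 3 these were ATP6V0A1 (log2 0.10), ATP6V0B (0.10), ATP6V0C (0.25), ATP6V1D (0.19), HEXA (0.11), MITF (0.29), and TFE3 (-0.14), and without MB468 0 h replicate 1 they were ATP6V0B (0.12), ATP6V1D (0.20), HEXA (0.13), and SGSH (-0.15). Without MB468res-R8 0 h replicate 1 they were ATP6V0A1 (0.14), ATP6V0B (0.11), ATP6V0C (0.27), ATP6V1D (0.10), HEXA (0.11), and LAMP2 (0.10), and without its replicate 3 HEXA (0.11), MITF (0.31), SGSH (-0.13), and TFE3 (-0.14). ATP6V0C also lost its call without MB468 0 h replicate 2 (0.24) or MB468res-R8 0 h replicate 2 (0.23).

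TFEB (chromosome 6, 41683978 to 41736259, minus strand, GRCh38) is the most studied activator of lysosomal genes. In MB468 its 3 libraries held 445, 398, and 461 normalized counts at 0 h, 841, 840, and 941 at 0.5 h, 568, 497, and 478 at 2 h, and 558, 525, and 652 at 12 h. In MB468res-R8 they held 232, 238, and 187 at 0 h, 421, 431, and 402 at 0.5 h, 244, 272, and 224 at 2 h, and 196, 171, and 195 at 12 h. Every MB468res-R8 library was below every MB468 library of the same time, and in both lines all libraries at 0.5 h lay above all at 0 h. The rise at 0.5 h was 2.01-fold in MB468 (log2 1.01, SE 0.087, edgeR adjusted p = 2.13e-12) and 1.89-fold in MB468res-R8 (log2 0.92, SE 0.099, adjusted p = 4.71e-10), and the responses differed by log2 -0.09 (SE 0.13, adjusted p = 0.864). At 2 h the differences from 0 h were not called, at log2 0.25 (adjusted p = 0.0577) in MB468 and 0.18 (adjusted p = 0.486) in MB468res-R8. At 12 h TFEB was above its 0 h level in MB468 by log2 0.42 (SE 0.087, adjusted p = 4.11e-05) and stood at log2 -0.23 (SE 0.107, adjusted p = 0.0582) in MB468res-R8, so that the responses differed by log2 -0.66 (SE 0.138, adjusted p = 8.85e-05). With spike-in scaling the MB468 value at 12 h was log2 0.17 and that difference -0.38, neither of them called, while the rises at 0.5 h kept their calls at 0.79 and 0.98.

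TFE3 (chromosome X, 49028726 to 49043410, minus strand) acts on the same E-boxes and was the most abundant of the factors. Its MB468 libraries held 2044, 1989, and 2233 normalized counts at 0 h and 2260, 2129, and 2203 at 12 h, and these overlapped. In MB468res-R8 they held 1818, 1976, and 1743 at 0 h and 1592, 1508, and 1553 at 12 h, with every 12 h library below every 0 h library. The fall in MB468res-R8 was log2 -0.25 (SE 0.059, adjusted p = 0.000339), the MB468 value was 0.08 (SE 0.056, adjusted p = 0.208), and the responses differed by log2 -0.33 (SE 0.081, adjusted p = 0.00067). Under spike-in scaling the difference was -0.07 (adjusted p = 0.806) and the MB468res-R8 value -0.23 (adjusted p = 0.152), neither of them called. No change of TFE3 was called at 0.5 or 2 h in either line.

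MITF (chromosome 3, 69739456 to 69968336, plus strand), best known from pigment cells, showed the largest response of the 36 genes. In MB468 it held 148, 134, and 115 normalized counts at 0 h, 249, 225, and 246 at 0.5 h, 172, 241, and 208 at 2 h, and 580, 543, and 487 at 12 h. In MB468res-R8 it held 162, 170, and 194 at 0 h, 270, 273, and 244 at 0.5 h, 198, 168, and 227 at 2 h, and 237, 280, and 238 at 12 h. All libraries at 0.5 h and at 12 h were above those at 0 h in both lines, and at 2 h this held in MB468 while the MB468res-R8 libraries overlapped. At 12 h MITF rose 4.01-fold in MB468 (log2 2.00, SE 0.114, adjusted p = 6.20e-19) and 1.44-fold in MB468res-R8 (log2 0.53, SE 0.118, adjusted p = 0.000176). The difference between these responses was log2 -1.47 (SE 0.165, adjusted p = 4.84e-10), and it was -1.22 and still called with spike-in scaling. The rises at 0.5 h were log2 0.84 (SE 0.123, adjusted p = 4.91e-07) in MB468 and 0.60 (SE 0.118, adjusted p = 8.29e-05) in MB468res-R8. The rise at 2 h in MB468 was log2 0.61 (SE 0.129, adjusted p = 0.00047), which fell to 0.20 and lost its call with spike-in scaling.

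**Figure D2:**
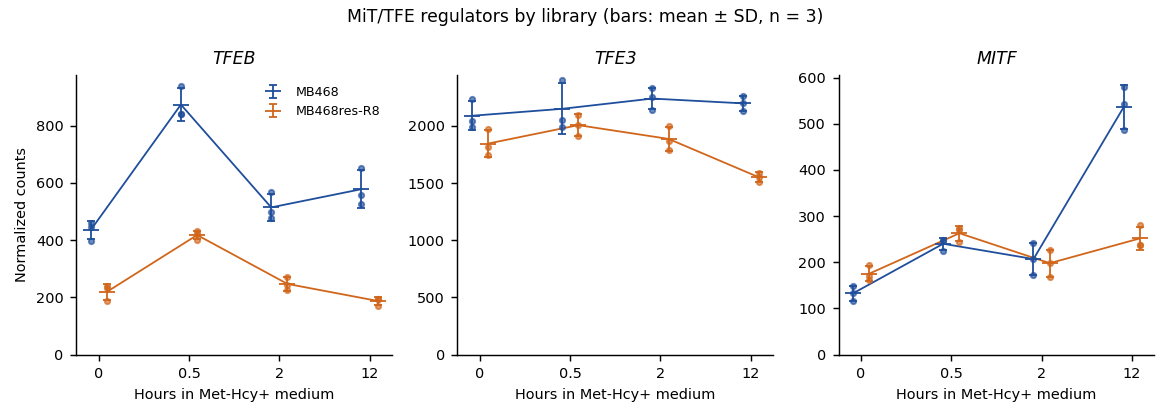
Normalized counts of TFEB, TFE3, and MITF against hours in Met-Hcy+ medium (0, 0.5, 2, and 12 h, evenly spaced). Each point is a library and bars are the mean ± SD of 3 libraries in MB468 and MB468res-R8. TFEB is high at 0.5 h in both lines, and MITF reaches 487 to 580 at 12 h in MB468 against 237 to 280 in MB468res-R8.

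Across the set, few transcripts other than these factors changed early. In MB468 at 0.5 h, 4 of 36 genes were higher and 5 lower, against 17.6% and 16.4% of all genes, and with spike-in scaling 2 were higher and 5 lower, against 3.11% and 19.2%. In MB468res-R8 at 0.5 h, 4 were higher and 4 lower, against 17.4% and 16.3%, and with spike-in scaling 2 were higher and 0 lower, against 8.1% and 5.62%. TFEB, MITF, and ATP6V1A were among the higher genes in both lines, joined by the acid lipase LIPA in MB468 (log2 0.16, adjusted p = 0.0023) and by the V1 subunit ATP6V1B2 in MB468res-R8. ATP6V0A1, NPC1, and CLCN7 were among the lower in both, joined by CTSB (log2 -0.15, adjusted p = 0.00152) and ATP6V0B in MB468 and by ATP6V1G1 in MB468res-R8. Scaled by spike-ins, the MB468 values at 0.5 h turned to -0.01 for ATP6V1A and -0.05 for LIPA, neither called, and in MB468res-R8 all calls but those of TFEB and MITF were lost without a change of direction.

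Some of these early calls depended on 1 library. The ATP6V1B2 value in MB468res-R8 at 0.5 h (log2 0.13, adjusted p = 0.0467) lost its call without any 1 of 12 libraries, which were MB468 0 h replicates 1 and 3, MB468 2 h replicate 2, all 3 of MB468 12 h, MB468res-R8 0 h replicates 1 and 2, all 3 of MB468res-R8 0.5 h, and MB468res-R8 2 h replicate 1, with values of 0.10 to 0.15. ATP6V0B in MB468 (log2 -0.13, adjusted p = 0.0321) lost it without MB468 0 h replicate 2 (-0.10) or MB468 0.5 h replicate 1 (-0.12), and ATP6V1G1 in MB468res-R8 (log2 -0.15, adjusted p = 0.0138) lost it without MB468res-R8 0.5 h replicate 3 (-0.12).

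CLCN7, which exchanges chloride for protons across the lysosomal membrane, held 1424, 1386, and 1308 normalized counts at 0 h and 1088, 1047, and 1266 at 0.5 h in MB468. In MB468res-R8 it held 1106, 1121, and 1140 at 0 h and 880, 954, and 925 at 0.5 h. The early libraries were below those at 0 h in both lines, with log2 -0.29 in each (SE 0.066, adjusted p = 0.000461 in MB468 and SE 0.067, adjusted p = 0.000689 in MB468res-R8).

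At 2 h MITF was the single gene of the 36 called in MB468, higher, against 8.88% of all genes higher and 7.47% lower. With spike-in scaling, which moved all genes down there, 34 of 36 were called lower and 0 higher, against 62.9% and 1.63% of all genes. TFEB was also called, making 2, without MB468 12 h replicate 3, MB468 2 h replicate 3, or MB468res-R8 0 h replicate 3. In MB468res-R8 at 2 h, 0 genes were called by edgeR, against 2.52% higher and 1.85% lower, with 2 of 36 at an unadjusted p under 0.05 and 0 called by DESeq2. The response did not differ between the lines by the test for any of the 36 genes at 0.5 h (all genes: 1.2% higher, 1.7% lower) or at 2 h (2.19% higher, 2.88% lower). In each of these comparisons 2 genes had an unadjusted p under 0.05, DESeq2 called 0, and LIPA had the smallest adjusted p, 0.145 at 0.5 h and 0.097 at 2 h.

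At 12 h the share of the 36 genes called was close to that of all genes, at 72.2% against 70.8% in MB468 and 61.1% against 61.3% in MB468res-R8, and falls outnumbered rises. In MB468 6 of 36 genes were higher and 20 lower, against 36.1% of all genes higher and 34.7% lower, with a median log2 change of -0.24 for the set and 0.01 for all genes. In MB468res-R8 6 were higher and 16 lower, against 30.2% and 31.1%, with a median of -0.12 and -0.02 for all genes. The response differed between the lines in 23 genes, 13 of them higher in MB468res-R8 relative to MB468 and 10 lower, against 26.2% and 30.3%. With spike-in scaling 3 were higher and 22 lower in MB468 (all genes: 17.2% and 40.2%), 2 and 7 in MB468res-R8 (18.8% and 21.2%), and 14 and 2 for the difference (27.5% and 11.8%), so that the 7 falls in MB468res-R8 were near the background. Relative to TMM, that scaling shifted the MB468 values at 12 h by about -0.24 and those of MB468res-R8 by about 0.02, and sizes given below for the lines side by side are those under TMM. Spike-in scaling ended the calls of ATP6V0B (log2 0.05), ATP6V1G1 (0.17), and TFEB in MB468. In MB468res-R8 it ended those of ASAH1, ATP6V0B, ATP6V1A, ATP6V1B2, ATP6V1D, ATP6V1G1, CLCN7, GUSB, HEXA, LAMP2, LIPA, TFE3, and TPP1, whose direction did not change (-0.29 to 0.29). By gene, under TMM scaling, 12 were lower in both lines and 3 higher in both (MITF, ATP6V0B, and ATP6V1G1), while 2 (ATP6V1C1 and ATP6V1D) were lower in MB468 and higher in MB468res-R8, and 5 were called in neither (CTSA, CTSL, MCOLN1, ATP6V0C, and ATP6V0E1).

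**Figure D3:**
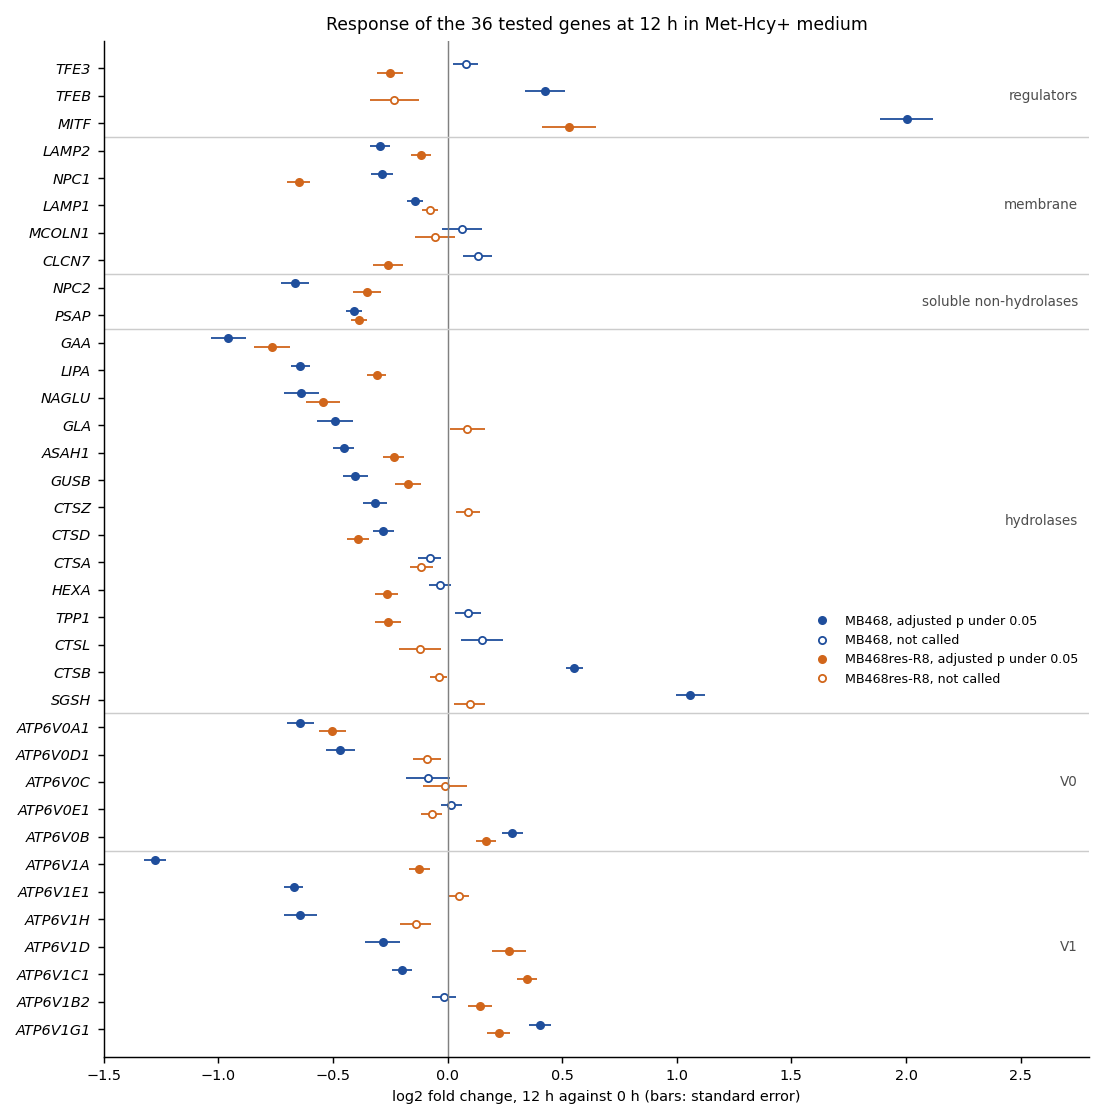
Log2 fold change at 12 h in Met-Hcy+ medium against 0 h for the 36 tested genes, grouped by role, in MB468 and MB468res-R8. Points are edgeR estimates from 3 libraries a group, bars are standard errors, and filled points have an adjusted p under 0.05. Most hydrolases lie left of 0 in both lines, with SGSH and CTSB to the right in MB468, and ATP6V1A is far left in MB468 (-1.28) and near 0 in MB468res-R8 (-0.12).

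Among the 14 tested hydrolases, 8 fell and 2 rose in MB468, and 8 fell and 0 rose in MB468res-R8. Their median log2 change was -0.30 in MB468 and -0.20 in MB468res-R8. Of all genes, 34.7% were lower and 36.1% higher in MB468, and 31.1% and 30.2% in MB468res-R8. With spike-in scaling 3 of the 14 hydrolases fell in MB468res-R8, near the 21.2% of all genes lower there. Under TMM scaling GAA, NAGLU, LIPA, ASAH1, GUSB, and CTSD fell in both lines, GLA and CTSZ fell in MB468, and HEXA and TPP1 fell in MB468res-R8. The MB468res-R8 calls of LIPA, ASAH1, GUSB, HEXA, and TPP1 were lost with spike-in scaling.

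GAA (chromosome 17, 80101533 to 80119881, plus strand) releases glucose from glycogen in the lysosome. It held 3808, 3881, and 3933 normalized counts at 0 h and 2009, 1888, and 2083 at 12 h in MB468, and 3538, 3875, and 3362 at 0 h and 2342, 1912, and 2071 at 12 h in MB468res-R8. The 12 h libraries lay far below those at 0 h in both lines, to 0.516 times the 0 h level in MB468 (log2 -0.96, SE 0.078, adjusted p = 4.60e-10) and 0.588 times in MB468res-R8 (log2 -0.77, SE 0.079, adjusted p = 3.33e-08). The difference between the responses was not called at log2 0.19 (adjusted p = 0.156), and with spike-in scaling it was called at 0.44.

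SGSH (chromosome 17, 80206716 to 80220923, minus strand), a sulfatase that degrades heparan sulfate, went the other way in MB468. Its MB468 libraries held 863, 823, and 797 normalized counts at 0 h and 1730, 1711, and 1740 at 12 h, without overlap. Its MB468res-R8 libraries held 738, 773, and 681 at 0 h and 860, 758, and 727 at 12 h, and these overlapped. The rise in MB468 was 2.08-fold (log2 1.06, SE 0.064, adjusted p = 4.54e-18), the MB468res-R8 value was log2 0.10 (SE 0.068, adjusted p = 0.224), and the responses differed by log2 -0.96 (SE 0.094, adjusted p = 1.50e-11). With spike-in scaling the rise was 0.82 and the difference -0.71, both called. SGSH shares 56 bases of exon (2.07% of its exonic length) with CARD14 on the opposite strand, from which reads cannot be told apart with a kit that does not mark strand. CARD14 itself fell at 12 h in MB468 (log2 -1.76, SE 0.089, adjusted p = 1.79e-20).

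CTSB, a cysteine protease, was the other hydrolase that rose in MB468. It held 5827, 6045, and 5863 normalized counts at 0 h and 8366, 8738, and 8910 at 12 h there, against 5358, 5177, and 5302 and then 5222, 4939, and 5262 in MB468res-R8. The MB468 groups did not overlap and the MB468res-R8 groups did. The log2 change was 0.55 (SE 0.037, adjusted p = 1.1e-16) in MB468 and -0.04 (SE 0.038, adjusted p = 0.393) in MB468res-R8, and the responses differed by -0.59 (SE 0.053, adjusted p = 1.57e-12), which was -0.34 and not called with spike-in scaling.

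Of the other hydrolases, NAGLU, which also acts on heparan sulfate, fell from 602 ± 31.3 to 385 ± 29.7 normalized counts in MB468 (log2 -0.64) and from 777 ± 25.0 to 532 ± 46.8 in MB468res-R8 (log2 -0.54). LIPA, which frees cholesterol and fatty acids from lipoprotein lipids, fell from 2046 ± 71.7 to 1307 ± 64.7 in MB468 (log2 -0.64) and from 2365 ± 23.2 to 1910 ± 25.3 in MB468res-R8 (log2 -0.31), with a called difference of log2 0.33. The acid ceramidase ASAH1 fell by 0.45 and 0.24 on the log2 scale in MB468 and MB468res-R8, the beta-glucuronidase GUSB by 0.40 and 0.17, and CTSD by 0.28 and 0.39. For CTSD the order of the lines turned with spike-in scaling, where it fell by 0.52 and 0.37, and the difference between the lines was called under neither scaling.
Among those that fell in 1 line only by the test, GLA, the alpha-galactosidase deficient in Fabry disease, went from 471 ± 11.9 to 336 ± 15.4 in MB468 (log2 -0.49, adjusted p = 4.45e-07) and from 478 ± 20.6 to 508 ± 11.3 in MB468res-R8 (log2 0.09, adjusted p = 0.334), and these responses differed by log2 0.58 (SE 0.11, adjusted p = 1.66e-05). CTSZ also fell in MB468 (log2 -0.32) and was at log2 0.09 in MB468res-R8 without a call, with a called difference of 0.41. The hexosaminidase subunit HEXA and the peptidase TPP1 were at log2 -0.03 and 0.09 in MB468 without a call and fell by 0.27 and 0.26 in MB468res-R8, and the differences of -0.23 and -0.35 were called. The TPP1 difference was -0.10 and not called with spike-in scaling. The HEXA difference turned to 0.03 with spike-in scaling and lost its call without MB468 0 h replicate 3 (-0.17) or MB468res-R8 0 h replicate 1 (-0.17). GUSB in MB468res-R8 lost its call without MB468res-R8 0 h replicate 1 (-0.14) or 12 h replicate 3 (-0.11). CTSA, the protective protein of NEU1, was at log2 -0.08 in MB468 and -0.11 in MB468res-R8, and the protease CTSL was at 0.15 and -0.12, none of these called.

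Of the 7 membrane and soluble non-enzyme genes, 5 fell and 0 rose at 12 h in each line, with median log2 changes of -0.29 in MB468 and -0.26 in MB468res-R8. The share of all genes lower was 34.7% in MB468 and 31.1% in MB468res-R8. With spike-in scaling 3 fell in MB468res-R8, against 21.2% of all genes. Both cholesterol exporters were among the 5 genes that fell in each line. NPC2 (chromosome 14, 74476192 to 74494177, minus strand) binds cholesterol in the lumen and hands it to NPC1 (chromosome 18, 23506184 to 23586506, minus strand) in the membrane.

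NPC2 held 953, 1030, and 968 normalized counts at 0 h and 604, 615, and 644 at 12 h in MB468, and 1060, 1056, and 1074 at 0 h and 787, 858, and 857 at 12 h in MB468res-R8. The fall was log2 -0.66 (SE 0.061, adjusted p = 1.11e-12) in MB468 and -0.35 (SE 0.061, adjusted p = 3.56e-06) in MB468res-R8, a difference of 0.31 (SE 0.086, adjusted p = 0.00194). The groups did not overlap in either line, and the fall was larger in MB468.

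NPC1 showed the opposite order. It held 1886, 1943, and 1876 at 0 h and 1596, 1526, and 1553 at 12 h in MB468, and 1870, 2009, and 1807 at 0 h and 1218, 1155, and 1251 at 12 h in MB468res-R8. Again no 12 h library reached the 0 h range, and the fall was log2 -0.29 (SE 0.047, adjusted p = 1.04e-06) in MB468 and -0.65 (SE 0.049, adjusted p = 1.00e-14) in MB468res-R8. The responses differed by log2 -0.36 (SE 0.068, adjusted p = 1.64e-05), a difference that was -0.11 and not called with spike-in scaling. NPC1 was already below 0 h at 0.5 h in both lines (log2 -0.20, adjusted p = 0.000882, and -0.25, adjusted p = 6.52e-05), at 1624, 1568, and 1795 (MB468) and 1640, 1559, and 1588 (MB468res-R8) normalized counts.

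PSAP fell in both lines, from 25699 to 19372 normalized counts on average in MB468 (log2 -0.41) and from 26539 to 20287 in MB468res-R8 (log2 -0.39), and with spike-in scaling by 0.64 and 0.37 on the log2 scale. Of the abundant glycoproteins of the limiting membrane, LAMP1 fell by 0.14 on the log2 scale in MB468 and was at -0.08 in MB468res-R8 without a call, and LAMP2 fell by 0.29 and 0.12. The LAMP2 value in MB468res-R8 lost its call without any 1 of 8 libraries, namely MB468 0 h replicate 3, MB468 0.5 h replicates 1 and 2, and MB468res-R8 0 h replicate 1, 0.5 h replicate 3, 2 h replicate 3, and 12 h replicates 1 and 3, with values of -0.09 to -0.06, and the LAMP2 difference between the lines (0.18) lost it without MB468res-R8 12 h replicate 2 (0.13). CLCN7 was at log2 0.13 (adjusted p = 0.0591) in MB468 and fell by 0.26 in MB468res-R8, with a called difference of -0.39 that was -0.15 and not called with spike-in scaling. The calcium channel MCOLN1 was at log2 0.06 in MB468 and -0.05 in MB468res-R8, neither called.

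In the V0 sector 2 of 5 subunits fell and 1 rose in MB468, and 1 fell and 1 rose in MB468res-R8. Of all genes, 34.7% were lower and 36.1% higher in MB468, and 31.1% and 30.2% in MB468res-R8. The V0 counts were thus near or below the background. The V0 subunit that fell in both lines was ATP6V0A1 (chromosome 17, 42458844 to 42522582, plus strand), an isoform of the large membrane subunit that lines the proton path. It held 1371, 1286, and 1188 normalized counts at 0 h, 934, 941, and 1045 at 0.5 h, and 807, 798, and 862 at 12 h in MB468, and 1447, 1441, and 1423, then 1221, 1138, and 1098, then 1041, 1058, and 947 in MB468res-R8. At both times the libraries were below all those at 0 h, and at 2 h the group means were 1234 ± 63.7 in MB468 and 1337 ± 15.3 in MB468res-R8, without a call in either line. The log2 changes were -0.41 (SE 0.060, adjusted p = 3.98e-07) at 0.5 h and -0.64 (SE 0.058, adjusted p = 7.75e-13) at 12 h in MB468. In MB468res-R8 they were -0.32 (SE 0.058, adjusted p = 2.57e-05) and -0.50 (SE 0.058, adjusted p = 9.24e-10). The 12 h difference between the lines was not called (log2 0.14, adjusted p = 0.148).

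ATP6V0D1 (chromosome 16, 67438014 to 67481181, minus strand), the subunit of the stalk that meets V1, held 983, 1017, and 923 normalized counts at 0 h and 654, 709, and 758 at 12 h in MB468. In MB468res-R8 it held 1325, 1218, and 1261 at 0 h and 1211, 1172, and 1197 at 12 h. The groups did not overlap in either line, but the change was called in MB468 (log2 -0.47, SE 0.063, adjusted p = 1.61e-08) and not in MB468res-R8 (log2 -0.09, adjusted p = 0.204), and the responses differed by log2 0.38 (SE 0.087, adjusted p = 0.000279). The proteolipid subunit ATP6V0B rose from 2091 ± 67.4 to 2545 ± 20.6 in MB468 (log2 0.28) and from 2285 ± 43.2 to 2565 ± 99.0 in MB468res-R8 (log2 0.17). ATP6V0C, the main proteolipid of the ring, was at log2 -0.08 and -0.01, and the small subunit ATP6V0E1 at 0.02 and -0.07, none of these called.

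The 7 listed V1 subunits split the lines. In MB468 5 of 7 subunits fell and 1 rose, with a median of log2 -0.28, whereas in MB468res-R8 1 fell and 4 rose, with a median of 0.14. Of all genes, 34.7% were lower and 36.1% higher in MB468, and 31.1% and 30.2% in MB468res-R8. The response was higher in MB468res-R8 than in MB468 for 5 of the 7 and lower for 1, against 26.2% and 30.3% of all genes. With spike-in scaling 1 V1 subunit rose and 0 fell in MB468res-R8, against 18.8% and 21.2% of all genes. The B subunit isoform ATP6V1B1, not among the 7, fell in both lines, more in MB468 (log2 -1.33 against -0.81), and is described below.

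ATP6V1A (chromosome 3, 113746770 to 113812056, plus strand), the catalytic subunit that binds ATP, had the largest fall of the set. Its MB468 libraries held 3187, 3237, and 3204 normalized counts at 0 h, 3706, 3893, and 3474 at 0.5 h, and 1304, 1281, and 1382 at 12 h, with 3065 ± 109 at 2 h. Its MB468res-R8 libraries held 3402, 2998, and 3235 at 0 h, 3883, 3814, and 3726 at 0.5 h, and 2846, 3063, and 2955 at 12 h, with 3211 ± 83.3 at 2 h. The group means at 0 h were 3210 ± 25.6 and 3212 ± 203, whereas at 12 h every MB468 library was far below every MB468res-R8 library. In MB468 ATP6V1A fell to 0.413 times its 0 h level (log2 -1.28, SE 0.047, adjusted p = 5.72e-25), and the responses differed by log2 1.15 (SE 0.066, adjusted p = 3.07e-18). With spike-in scaling these values were -1.52 and 1.42, both called. In MB468res-R8 the 12 h libraries overlapped those at 0 h, and the fall of log2 -0.12 (SE 0.046, adjusted p = 0.0194) lost its call without any 1 of 7 libraries, namely MB468 0 h replicate 3, MB468 0.5 h replicate 1, and MB468res-R8 0 h replicate 1, 0.5 h replicate 3, 2 h replicate 3, and 12 h replicates 1 and 3, with values of -0.10 to -0.06. The rise at 0.5 h was log2 0.20 (adjusted p = 0.000397) in MB468 and 0.24 (adjusted p = 3.12e-05) in MB468res-R8.

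ATP6V1E1 (chromosome 22, 17592136 to 17628749, minus strand), part of the stator that holds the catalytic head in place, held 2475, 2552, and 2508 normalized counts at 0 h and 1531, 1600, and 1604 at 12 h in MB468. In MB468res-R8 it held 2351, 2377, and 2344 at 0 h and 2417, 2504, and 2406 at 12 h. The MB468 libraries moved down and those of MB468res-R8 lay slightly above their 0 h range. The fall in MB468 was to 0.628 times the 0 h level (log2 -0.67, SE 0.042, adjusted p = 1.73e-17), the MB468res-R8 value was log2 0.05 (SE 0.042, adjusted p = 0.307), and the responses differed by log2 0.72 (SE 0.060, adjusted p = 1.85e-13).

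The regulatory subunit ATP6V1H fell in MB468 from 593 ± 32.4 to 381 ± 12.8 normalized counts (log2 -0.64) and was at log2 -0.14 (adjusted p = 0.0784) in MB468res-R8, a difference of 0.50 (SE 0.10, adjusted p = 3.69e-05). ATP6V1C1, which links the sectors, fell in MB468 from 3900 ± 107 to 3404 ± 61.3 (log2 -0.20) and rose in MB468res-R8 from 3789 ± 147 to 4815 ± 225 (log2 0.35). ATP6V1D, a part of the central rotor, fell in MB468 from 778 ± 26.9 to 644 ± 49.5 (log2 -0.28) and rose in MB468res-R8 from 903 ± 128 to 1091 ± 37.1 (log2 0.27), the latter without a call when MB468res-R8 0 h replicate 2, the lowest of its group, was left out (0.16).
The differences between the lines were log2 0.54 (SE 0.062, adjusted p = 7.75e-10) for ATP6V1C1 and 0.55 (SE 0.11, adjusted p = 2.77e-05) for ATP6V1D. The nucleotide-binding subunit ATP6V1B2 was at log2 -0.01 in MB468 and rose by 0.14 in MB468res-R8, a call lost without MB468res-R8 0 h replicate 2 (0.11) or 12 h replicate 2 (0.11), and the difference of 0.15 was not called (adjusted p = 0.0697). The stator subunit ATP6V1G1 rose in both lines, by 0.40 in MB468 and 0.22 in MB468res-R8. Its difference between the lines, log2 -0.18 (adjusted p = 0.021), was 0.08 with spike-in scaling and was not called without any 1 of 10 libraries, namely MB468 0 h replicates 2 and 3, MB468 0.5 h replicates 1 and 2, MB468 12 h replicate 1, and MB468res-R8 0 h replicate 1, 0.5 h replicate 3, 2 h replicate 3, and 12 h replicates 1 and 3, with values of -0.17 to -0.10.

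**Figure D4:**
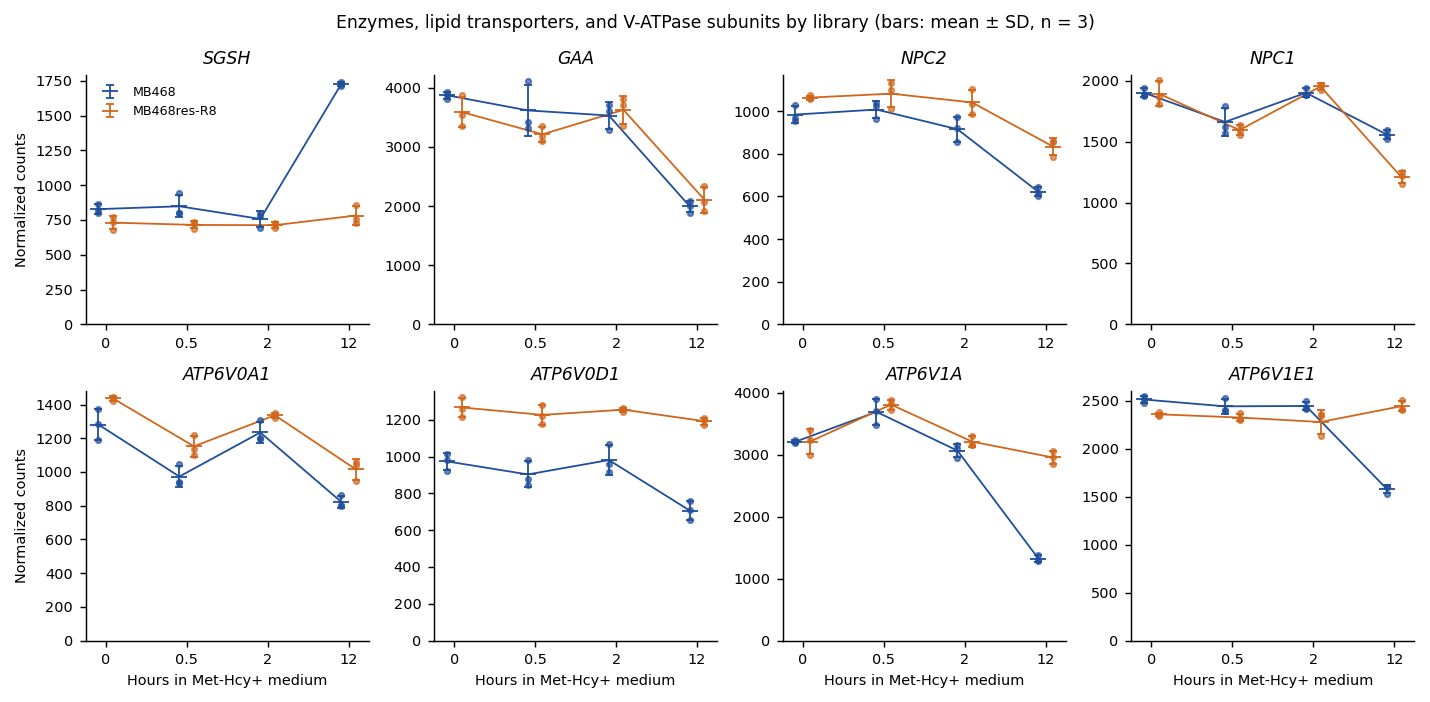
Normalized counts of the enzymes SGSH and GAA, the cholesterol transporters NPC2 and NPC1, and the V-ATPase subunits ATP6V0A1, ATP6V0D1, ATP6V1A, and ATP6V1E1 against hours in Met-Hcy+ medium (evenly spaced). Each point is a library and bars are the mean ± SD of 3 libraries in MB468 and MB468res-R8. SGSH separates the lines upward and ATP6V1A and ATP6V1E1 separate them downward in MB468 at 12 h, while GAA falls in both.

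The pump and the hydrolases were then set side by side. For each library the median log2 difference from the 0 h mean of its own line was taken over the 12 V-ATPase subunits and over the 14 tested hydrolases. At 0.5 and 2 h the group means of these medians ranged from -0.04 to 0.01. At 12 h in MB468 the V-ATPase median was -0.24 ± 0.064 (SD, n = 3) and the hydrolase median -0.30 ± 0.052, a gap of 0.06 ± 0.12 that is smaller than its spread. At 12 h in MB468res-R8 the V-ATPase median was 0.02 ± 0.017 and the hydrolase median -0.22 ± 0.063, a gap of 0.23 ± 0.073.

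By library the gap was 0.03, 0.19, and -0.03 in MB468 and 0.15, 0.28, and 0.27 in MB468res-R8, so that 1 MB468 library lay within the MB468res-R8 range. By sector, V1 stood at -0.28 ± 0.093 in MB468 and 0.13 ± 0.079 in MB468res-R8 with no overlap of libraries, and V0 at -0.09 ± 0.11 and -0.07 ± 0.015. In the fit the medians of the difference between the lines at 12 h were 0.54 for V1, 0.07 for V0, 0.03 for hydrolases, and -0.05 for all genes. These medians describe the listed genes and carry no test. The 13 other V-ATPase genes, taken up below, mix V0 subunits, V1 subunits, and assembly factors and were not split by sector. Their medians at 12 h were -0.11 in MB468, -0.05 in MB468res-R8, and -0.02 for the difference between the lines. These medians cannot show whether V1 subunits outside the set share the V1 pattern. Of the isoforms that changed at least 2-fold in a line, ATP6V1B1 differed between the lines by log2 0.52 and ATP6V0E2 by 0.67. ATP6V0A4 and ATP6V0D2 differed by -1.20 and -2.70. Of the 13, the response was higher in MB468res-R8 for 5 and lower for 5, against 26.2% and 30.3% of all genes.

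**Figure D5:**
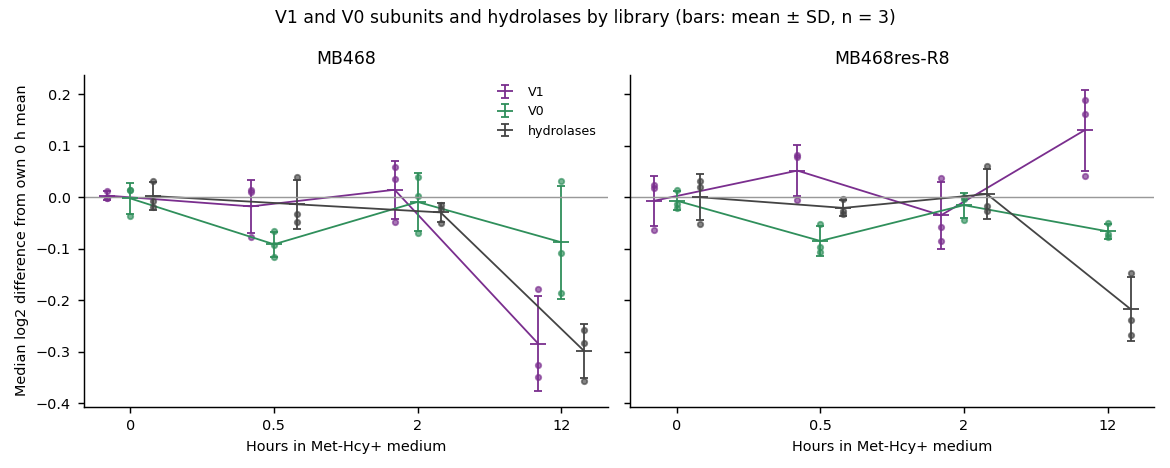
Median log2 difference from the 0 h mean of the same line over V1 subunits (7 genes), V0 subunits (5 genes), and tested hydrolases (14 genes), against hours in Met-Hcy+ medium (evenly spaced), in MB468 and MB468res-R8. Each point is a library and bars are the mean ± SD of 3 libraries. At 12 h V1 is at -0.28 in MB468 and 0.13 in MB468res-R8, and hydrolases are at -0.30 and -0.22.

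Genes with CACGTG in the promoter window moved in both directions. Of the 9 tested, 2 rose and 4 fell at 12 h in MB468 (median log2 -0.08, from -0.96 for GAA to 0.40 for ATP6V1G1), and 2 rose and 3 fell in MB468res-R8 (median -0.09). Of the 15 tested genes whose window lacked it, 2 rose and 9 fell in MB468 (median -0.29), and 2 rose and 7 fell in MB468res-R8 (median -0.17). Of all genes, 36.1% were higher and 34.7% lower in MB468, and 30.2% and 31.1% in MB468res-R8. The counts of genes with CACGTG were near these shares. Their rises, those of ATP6V0B and ATP6V1G1, lost their calls in both lines with spike-in scaling. Among the 4 promoters printed above, LAMP1 with 6 copies changed by log2 -0.14 in MB468, GAA with 2 by -0.96, and ATP6V0D1 and ATP6V1G1 with 1 each by -0.47 and 0.40. These 4 were picked to span the responses, so no relation between copies and response can be read from them. CTSA, MCOLN1, CLCN7, and ATP6V0B also had 2 copies each. In MB468 at 12 h ATP6V0B rose, and CTSA, MCOLN1, and CLCN7 were not called. The members without a window in the table were PSAP, NAGLU, ASAH1, HEXA, SGSH, CTSB, LAMP2, ATP6V0E1, ATP6V1A, ATP6V1B2, ATP6V1C1, and ATP6V1H.

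Lysosomal genes outside the set were followed in 5 further lists, whose counts at 12 h stand against 36.1% of all genes higher and 34.7% lower in MB468 and 30.2% and 31.1% in MB468res-R8. These lists and the genes named from them were followed under TMM scaling only, and their values with spike-in scaling were not examined. Of 31 tested lysosomal enzymes not among the 37, 3 rose and 18 fell at 12 h in MB468 (median log2 -0.32) and 6 rose and 16 fell in MB468res-R8 (median -0.23). Of 19 further lysosomal membrane proteins, 6 rose and 9 fell in MB468 and 3 rose and 9 fell in MB468res-R8. Of 9 genes of enzyme sorting, 4 rose and 3 fell in MB468 and 2 rose and 3 fell in MB468res-R8. The 25 tested genes of MiT/TFE control and mTORC1 anchoring at the lysosome gave 11 higher and 8 lower in MB468 and 7 higher and 6 lower in MB468res-R8, and apart from the 11 these counts were near or below the background. Of 13 other V-ATPase subunits and assembly factors, 3 rose and 6 fell in MB468 and 2 rose and 5 fell in MB468res-R8.

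In that last list 4 alternative subunit isoforms changed by at least 2-fold in a line. ATP6V1B1, the isoform of the B subunit best known from kidney, fell from 3873 ± 177 to 1542 ± 96.4 normalized counts in MB468 (log2 -1.33, SE 0.046, adjusted p = 7.00e-26) and from 2666 ± 61.2 to 1525 ± 32.9 in MB468res-R8 (log2 -0.81, SE 0.048, adjusted p = 5.76e-18). ATP6V0E2 fell from 1779 ± 76.9 to 810 ± 54.5 in MB468 (log2 -1.13) and from 851 ± 24.2 to 616 ± 27.7 in MB468res-R8 (log2 -0.46). For both the fall was larger in MB468, with differences of log2 0.52 (SE 0.066, adjusted p = 8.15e-09) and 0.67 (SE 0.087, adjusted p = 1.57e-08).
ATP6V0A4, a kidney isoform of the subunit that ATP6V0A1 also encodes, had the reverse order, from 1628 ± 57.5 to 1116 ± 79.8 in MB468 (log2 -0.55) and from 513 ± 35.1 to 154 ± 15.03 in MB468res-R8 (log2 -1.75), a difference of -1.20 (SE 0.11, adjusted p = 2.46e-12). ATP6V0D2, known from osteoclasts and macrophages, was scarce and rose in MB468 from 3.69 ± 1.63 to 31.4 ± 6.53 (adjusted p = 3.19e-08), against 18.5 ± 2.19 and 22.2 ± 2.06 in MB468res-R8 (adjusted p = 0.495).

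From the other lists 3 genes changed by at least 2-fold. CTSH, a cysteine protease, fell from 1128 ± 39.7 to 494 ± 16.2 normalized counts in MB468 (log2 -1.19) and from 1338 ± 102 to 843 ± 59.4 in MB468res-R8 (log2 -0.67). RRAGC, a Rag GTPase that brings mTORC1 and TFEB to the lysosomal surface, rose in MB468 from 1134 ± 38.8 to 3214 ± 248 (log2 1.51, SE 0.054, adjusted p = 2.10e-25) and in MB468res-R8 from 1257 ± 30.3 to 1428 ± 109 (log2 0.18, SE 0.056, adjusted p = 0.00499). The difference in the RRAGC response was log2 -1.32 (SE 0.078, adjusted p = 8.21e-18). PPARGC1A, a coactivator of energy metabolism, rose from 71.5 ± 12.6 to 177 ± 3.30 in MB468 (log2 1.29, SE 0.18, adjusted p = 3.89e-08), and its highest value in any MB468res-R8 library was 1.31.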

How the data were processed

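The deposited table holds raw counts per gene. Per the submitters' notes and the paper's methods, poly(A) libraries (TruSeq v2, which does not mark strand, with ERCC spike-ins) were sequenced in single reads of 100 bp, mapped by the authors to GRCh38 (HISAT2 2.1.0), and counted with featureCounts (Subread 1.5.3). The strand setting and annotation release are not given in the sources used here. The authors' tables of normalized counts (18 of 24 libraries) and of DESeq2 fold changes and p-values were not used.

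The 37 genes, their classes and the further lists were chosen with earlier results of these data known. All of the 37 are named, 11 of them with every library: the 3 factors, and per class the 2 with the largest log2 change called at 12 h in a line or between lines. CTSB and CLCN7 were added after their values were seen. From other lists, genes with a called change of at least 2-fold at 12 h are named.

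The main test was that of edgeR 4.0.16 in R 4.3.3. Spike-ins were left out, filterByExpr (minimum count 10, minimum total 15) kept 14741 genes, and a robust quasi-likelihood model with 1 mean for each of 8 groups, TMM factors and Benjamini-Hochberg adjustment over all genes gave 10 comparisons, called at an adjusted p under 0.05. SE is the absolute log2 change over the square root of F. Normalized counts are counts divided by the effective library size and multiplied by its mean. DESeq2 1.42.0, other scalings and filters, a replicate block, and leaving out each library were alternatives. The procedure was also run on simulated data, in which few genes changed, with equal numbers up and down. Far more genes were called at 12 h here, so that run does not bear on the scaling or the calls at 12 h. Promoter sequences are from RefSeq (GRCh38.p14), gene positions from GENCODE.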

Additional observations from a re-analysis of the deposited data

Results flagged for a closer look

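The 12 h response differed between the lines by edgeR's test of the difference itself in 23 of the 36 tested genes. Of these, 13 were higher in MB468res-R8 and 10 lower, against 26.2% and 30.3% of all genes. Each value here is the log2 response in MB468res-R8 less the MB468 response. It was higher in MB468res-R8 for the V-ATPase subunits ATP6V1A (1.15), ATP6V1E1 (0.72), ATP6V1D (0.55), ATP6V1C1 (0.54), ATP6V1H (0.50), and ATP6V0D1 (0.38), and for GLA (0.58), CTSZ (0.41), LIPA (0.33), NPC2 (0.31), GUSB (0.23), ASAH1 (0.22), and LAMP2 (0.18). It was lower for the factors MITF (-1.47), TFEB (-0.66), and TFE3 (-0.33), and for SGSH (-0.96), CTSB (-0.59), CLCN7 (-0.39), NPC1 (-0.36), TPP1 (-0.35), HEXA (-0.23), and ATP6V1G1 (-0.18). HEXA and ATP6V1G1 turned to 0.03 and 0.08 with spike-in scaling, and TFEB, TFE3, CTSB, CLCN7, NPC1, and TPP1 lost their calls there.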

How the results depend on the processing

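The text rests on 113 called log2 changes. Of these, DESeq2's test lost 2, DESeq2 size factors 2, a minimum of 10 counts in every library 1, no filter on low counts 4, a fit on only the groups compared 2, and the replicate block 1, with 0 reversed. Spike-in scaling lost 35 and reversed 17. The reversed values at 0 h were ATP6V0A1 -0.15, ATP6V0B -0.18, ATP6V0C -0.0395, ATP6V0E1 -0.0486, ATP6V1D -0.0904, ATP6V1G1 -0.11, ATP6V1H -0.0086, GUSB -0.0757, HEXA -0.17, LAMP1 -0.17, LAMP2 -0.17, LIPA -0.10, and TPP1 -0.0337. At MB468 0.5 h they were ATP6V1A -0.0106 and LIPA -0.0540, and in the 12 h difference ATP6V1G1 0.0810 and HEXA 0.0251. With spike-in scaling the genes called were 11 at 0 h, 34 in MB468 at 2 h, and 2 and 9 in MB468res-R8 at 0.5 and 12 h. Without a filter on low counts 3 genes were called in MB468 at 2 h (MITF, TFEB, and GAA). The cause was not tested.

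Leaving out each library in turn, the genes called ranged from 17 to 25 at 0 h, 8 to 10, 1 to 2, and 26 to 27 in MB468 at 0.5, 2, and 12 h, 7 to 9, 0, and 19 to 24 in MB468res-R8, and 0, 0, and 22 to 24 for the difference between lines. The gap between V-ATPase and hydrolase medians ranged from -0.0253 to 0.0469 at 0 h, -0.0021 to 0.10 in MB468 at 12 h, 0.19 to 0.26 in MB468res-R8, and 0.19 to 0.28 for the difference.

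With the replicate block, 7 rather than 8 genes were called in MB468res-R8 at 0.5 h and no other count changed. Deviations of libraries with the same number correlated at -0.0193 on average, against 0.0102 for different numbers (6441 genes), so the numbers did not pair the libraries on average. By comparison the average for the same number ran from -0.14 (MB468res-R8 at 12 and 0 h) to 0.28 (MB468res-R8 at 2 and 0 h). A pairing within a single comparison was not tested. The smallest change called at this depth was log2 -0.12 (LAMP2 in MB468res-R8 at 12 h).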
